A study of Mus musculus with 9 samples.

Results

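The genes described here take up, reduce, store and export iron, open the heme ring, or sense iron in the cytosol. They are Tfrc, Slc11a2, Steap3, Steap4, Fth1, Ftl1, Slc40a1, Hmox1, Aco1 and Ireb2, 10 genes set beside the 19072 gene identifiers of the tables. They were chosen by name, from a view of the expected counts and FPKM (fragments scaled by transcript length and library size) of these same libraries. Their differences between groups are therefore a description, and no p-value is given for them. Where a gene is said to be called at an adjusted p under 0.05, that call is no independent test. Values of 9 of the 10 are given, and all 9 passed the filter on low counts. The exporter Slc40a1 was listed in 0 of the 9 libraries. It may have been left out or fallen below the lowest level listed, so its level was not analysed here. Gene positions are from RefSeq on GRCm38.p6, with the Entrez gene number of the tables.

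RNA was sequenced from cultured 4T1-TGL cells, a mouse breast cancer cell line from the BALBC strain, grown in DMEM/F12. The 9 libraries fall into 3 groups of 3: KO2 and KO1, a pair of lines labelled as Malat1 knockouts, and Ctrl, labelled WT at Malat1. Malat1 is a long noncoding RNA of the nucleus. The labels name no further treatment, and leave unsaid which bases of Malat1 were removed, whether a line grew from 1 clone and whether replicates came from separate cultures. The p-values therefore cover only the spread between these libraries, which may be technical.

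Iron bound to transferrin enters cells with the transferrin receptor, encoded by Tfrc. In the endosome a STEAP metalloreductase reduces ferric iron to ferrous iron, which the transporter encoded by Slc11a2 (DMT1) carries to the cytosol. Iron not in use is stored in ferritin, a shell of heavy chains (Fth1) and light chains (Ftl1), while heme oxygenase 1 (Hmox1) releases iron from heme. The iron regulatory proteins encoded by Aco1 and Ireb2 bind hairpins called iron-responsive elements in mRNA when iron is scarce, which blocks translation where the hairpin lies in a 5′ untranslated region (UTR) and protects the mRNA where it lies in a 3′ UTR. The libraries measured mRNA, not protein or iron.

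The elements of the ferritin genes and of Tfrc are shown because they are the sequences through which the sensors act on these mRNAs. They were found in the GRCm38 genome with the GENCODE vM21 annotation, as an unpaired C, 5 paired bases, a loop of 6 bases and the pairing strand, on the sense strand only. Each is printed 5′ to 3′ over 29 bases, with the loop in capitals. The Fth1 element is at chr19:9982732-9982760 on the plus strand and the Ftl1 element at chr7:45459779-45459807 on the minus strand, each in exon 1 of 4 and in the 5′ UTR. The Tfrc elements lie on the plus strand in the 3′ UTR, all in exon 19 of 19, at chr16:32631219-32631247, chr16:32631598-32631626, chr16:32631663-32631691 and chr16:32631710-32631738.
Fth1: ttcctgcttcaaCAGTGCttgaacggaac
Ftl1: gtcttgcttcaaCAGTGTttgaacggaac
Tfrc 1: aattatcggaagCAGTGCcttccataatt
Tfrc 2: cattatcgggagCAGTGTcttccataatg
Tfrc 3: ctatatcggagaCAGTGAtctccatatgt
Tfrc 4: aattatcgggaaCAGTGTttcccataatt
The ferritin elements were alike at 26 of 29 positions and differed at 3, and the 4 Tfrc elements spanned 520 bases. Of 21190 genes searched, 21 (0.0991%) held such an element in a 5′ UTR and 98 (0.462%) in a 3′ UTR. Slc40a1 is among the 21, with an element that is not printed here. None was found by this pattern in Slc11a2, Steap3, Steap4, Hmox1, Aco1 or Ireb2. This says only that no stretch of their annotated UTRs fits the pattern. An element with an unpaired base within the 5 pairs would be missed, so these genes may still hold elements.

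Expected counts, the estimated reads per gene, summed to between 30655924 and 35406395 per library. Malat1 averaged 126 ± 31.5 CPM (counts scaled to library size) in KO2 and 3.39 ± 0.678 CPM in KO1, against 462 ± 54.9 CPM in Ctrl (SD, n = 3 each), so KO2 kept 27.2% and KO1 0.734% of the Ctrl level. Of 9 epithelial markers, Krt8 (204.11 to 598.93 FPKM over all libraries), Krt18 and Krt7 averaged over 1 FPKM, while Epcam reached at most 0.32 and Cdh1 at most 0.08 FPKM, so defining markers of simple epithelium were at or near 0. The markers summed to between 1343 and 1448 FPKM in KO2 and between 832 and 974 FPKM in KO1, against 489 to 503 FPKM in Ctrl. Of 10 macrophage markers, 3 averaged over 1 FPKM (Cd68, Cd14 and Cd163), and Ptprc reached at most 0.02 FPKM. Their sum was 23.7 to 26.1 FPKM in KO2 and 38.4 to 47.8 FPKM in KO1, against 28.9 to 32.1 FPKM in Ctrl. Of 7 fibroblast markers, 3 averaged over 1 FPKM (Pdgfra, Pdgfrb and Dcn), and the sums were 22.8 to 24.1 FPKM in KO2 and 46.5 to 50.3 FPKM in KO1, against 55.3 to 57.2 FPKM in Ctrl. The part of these marker differences in the results below was not tested.

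KO2 replicate 2 stood apart in globin RNA. Its 4 globin genes summed to 35.89 FPKM, against 0.00 to 0.44 FPKM in the other 8 libraries. The other erythroid markers were not raised, at 0.35 FPKM summed against 0.35 and 0.36 FPKM in KO2 replicates 1 and 3. KO2 replicate 2 also listed 15678 genes, against 15102 and 15100 in KO2 replicates 1 and 3. Its Malat1 was the highest of KO2, at 160 CPM against 119 and 98.1 CPM. The counts of calls in KO2 are given with and without it where they differ.

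Between KO2 and Ctrl, 8 of the 9 measured genes were called at an adjusted p under 0.05, 2 higher and 6 lower. Over all 13682 tested genes, 54.1% were called, 24.6% higher and 29.5% lower. Without KO2 replicate 2 the count was again 8, where 6456 of all genes were called in place of 7400. Between KO1 and Ctrl, 5 of 9 were called, 2 higher and 3 lower, where 30.5% of all genes were called, 15.6% higher and 14.9% lower. Between KO2 and KO1, 7 of 9 were called, 2 higher and 5 lower, where 55.0% of all genes were called, 25.5% higher and 29.5% lower. Without KO2 replicate 2 that last count was 5, 2 higher and 3 lower, where 6741 of all genes were called in place of 7529. The median log2 fold change of the 9 genes was −0.41 in KO2 and −0.10 in KO1 against Ctrl, where the median of all tested genes was −0.030 in KO2 and −0.002 in KO1. Nothing is read from these counts, since the contrasts were in view when the genes were chosen. Both knockout lines are set against the same 3 Ctrl libraries.

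**Figure D1:**
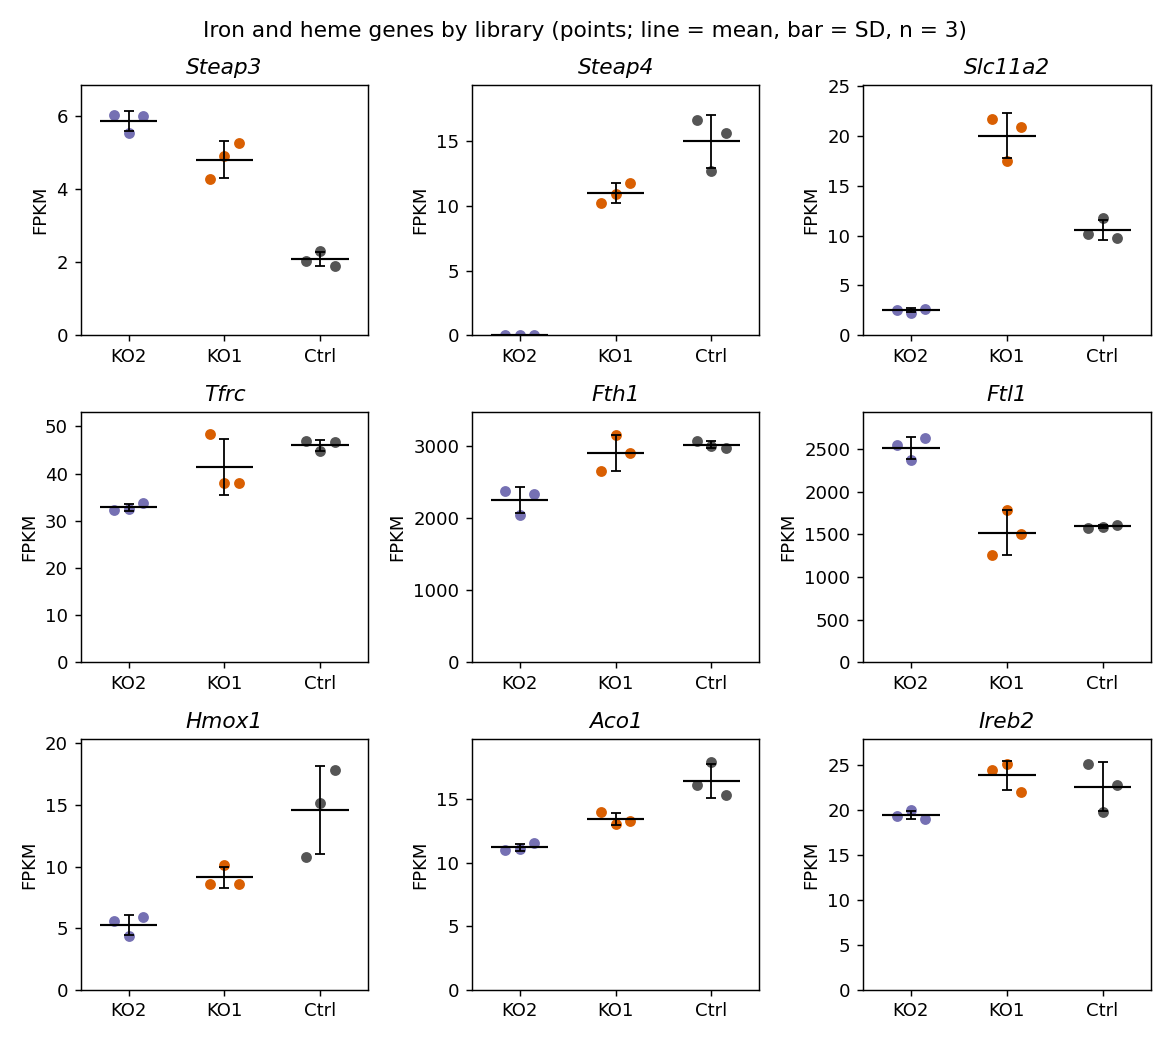
FPKM of the 9 measured iron and heme genes (y axis, from 0) in KO2, KO1 and Ctrl (x axis). Points are libraries, lines are means and bars are SD (n = 3). Steap3 was higher in both knockout lines, Steap4 was at 0 in KO2 only, and Slc11a2 was lowest in KO2 and highest in KO1.

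Tfrc (Entrez 22042, chr16:32608896-32632794), the receptor that carries iron-loaded transferrin into the cell, was the most abundant of the 4 measured uptake genes. It had 32.37, 32.55 and 33.67 FPKM in KO2 and 48.29, 38.01 and 38.08 FPKM in KO1, against 46.80, 44.71 and 46.60 FPKM in Ctrl. The KO2 libraries lay below all others, and the KO1 libraries fell on both sides of Ctrl, with replicate 1 above all Ctrl libraries. The fitted log2 fold change against Ctrl was −0.41 ± 0.09 (SE) in KO2, which is 75.3% of the Ctrl level, and −0.18 ± 0.09 in KO1, which was not called. Without KO1 replicate 1 the KO1 value was −0.30 and was called. Between KO2 and KO1 it was −0.23 ± 0.09, a call that was lost in 11 of the other fits tried and at a threshold of 0.01. Among these fits were those without KO1 replicate 1 (−0.10) and without KO2 replicate 2 (−0.22). In bulk RNA, fewer cells with a transcript and less of it per cell cannot be told apart, here and for every gene below.

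Slc11a2 (Entrez 18174, chr15:100387898-100424209), which encodes the endosomal ferrous iron transporter, went in opposite directions in the knockout lines. It had 2.52, 2.28 and 2.68 FPKM in KO2 and 21.68, 17.49 and 20.91 FPKM in KO1, against 10.18, 11.73 and 9.77 FPKM in Ctrl. No group overlapped another. The fitted change against Ctrl was −2.07 ± 0.11 log2 units in KO2, or 23.8% of the Ctrl level, and 0.88 ± 0.10 in KO1, or 1.84-fold. Between KO2 and KO1 it was −2.95 ± 0.11.

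The gene makes transcripts of different length, and the tables give for each library the mean length weighted by their estimated amounts. For Slc11a2 this was 3695, 3678 and 3705 bases in KO2 and 3788, 3851 and 3867 bases in KO1, against 3864, 3836 and 3887 bases in Ctrl. The KO2 lengths were below those of all other libraries. The annotation has transcripts of 3025 and 4415 bases for this gene that match RefSeq entries, and the tables do not give the amount of each.

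**Figure D2:**
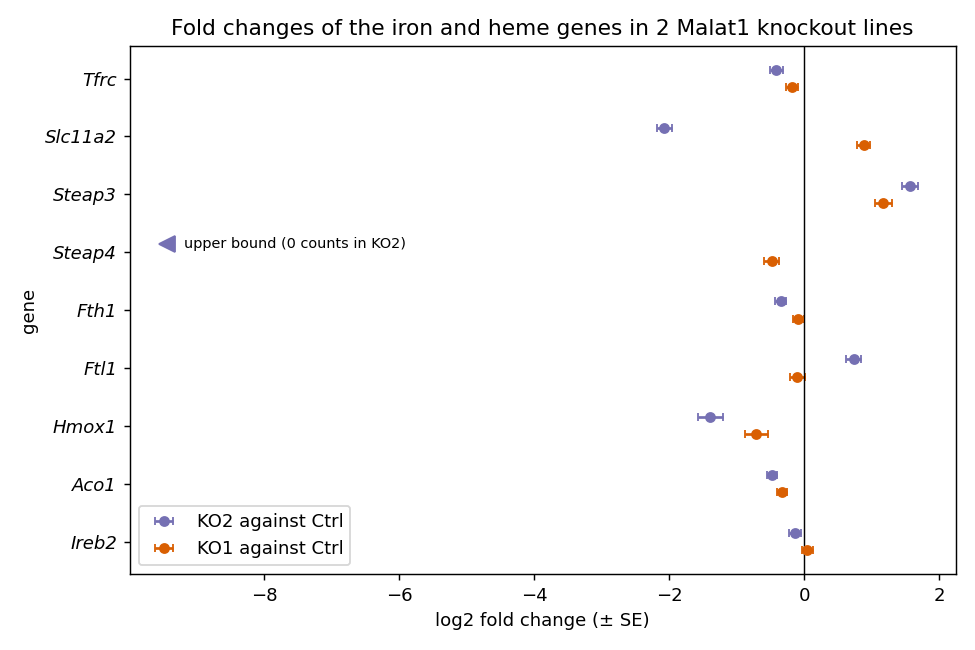
Fitted log2 fold change against Ctrl (x axis, ± SE) of each measured gene (y axis) in KO2 and KO1. The arrowhead for Steap4 in KO2 marks an upper bound of −9.44. Slc11a2 is at −2.07 in KO2 and 0.88 in KO1, and Steap3 is above 0 in both lines.

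Steap3 (Entrez 68428, chr1:120226414-120271081), an endosomal ferrireductase needed for iron uptake by developing red cells in mice, was higher in both knockout lines. It had 6.04, 5.54 and 5.99 FPKM in KO2 and 4.27, 4.91 and 5.25 FPKM in KO1, against 2.04, 2.30 and 1.91 FPKM in Ctrl. Every knockout library lay above every Ctrl library. The fitted fold was 2.97 in KO2 (log2 1.57 ± 0.12) and 2.26 in KO1 (log2 1.18 ± 0.12), and KO2 exceeded KO1 by 0.39 ± 0.11 log2 units. It remained the least abundant of the 9 genes in Ctrl and in KO1.

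Steap4 (Entrez 117167, chr5:7960472-7982213), a related metalloreductase of ferric and cupric ions, was not listed in any of the 3 KO2 libraries, KO2 replicate 2 included, and was taken as 0 there. It had 10.24, 10.91 and 11.78 FPKM in KO1, against 16.66, 12.71 and 15.63 FPKM in Ctrl. The KO1 libraries lay below all Ctrl libraries, with a fitted log2 change of −0.48 ± 0.11, or 71.7% of the Ctrl level. For KO2 only a bound can be given. The group as a whole was given a floor of 5.88 counts, made of 3 counts and the 2.88 that could go unseen below 0.01 FPKM, the lowest level listed. Against this floor, Steap4 was at least 696-fold lower in KO2 than in Ctrl and at least 500-fold lower in KO2 than in KO1. The floor covers counting error only.

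Among the STEAP family, Steap1 and Steap2 made up most of the summed FPKM. The sum of Steap1 to Steap4 was 107 ± 4.8 FPKM in KO2 and 137 ± 25.7 FPKM in KO1, against 165 ± 15.1 FPKM in Ctrl (SD, n = 3 each). Steap4 contributed 0.00% of the sum in KO2 and 6.36%, 9.92% and 8.49% in KO1, against 10.95%, 7.01% and 9.76% in Ctrl. Steap3 contributed 5.40%, 5.42% and 5.61% in KO2 and 2.65%, 4.47% and 3.78% in KO1, against 1.34%, 1.27% and 1.19% in Ctrl. Thus Steap3 exceeded Steap4 in each KO2 library, while Steap4 exceeded Steap3 in each KO1 and Ctrl library.

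On the log2 CPM scale, Steap4 had the widest range of group means among the measured genes. Over the 9 libraries and 12281 genes of at least 1 CPM on average, the genes with the most similar pattern (smallest root mean square difference of log2 CPM centred on Ctrl) were Saa3 at 0.75, 3830403N18Rik at 0.79 and Shtn1 at 0.81 log2 units. Saa3 averaged 0.0558 CPM in KO2 and 18.5 CPM in KO1, against 42.6 CPM in Ctrl. 3830403N18Rik averaged 0 CPM in KO2 and 49.2 CPM in KO1, against 29.9 CPM in Ctrl. Shtn1 averaged 0.0222 CPM in KO2 and 19.5 CPM in KO1, against 24.7 CPM in Ctrl. What these genes share with Steap4 in the measure is a level at or near 0 in KO2.

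The ferritin chains were by far the most abundant mRNAs of the group, and they moved apart in KO2. Fth1 (Entrez 14319, chr19:9980600-9985111), the heavy chain with the ferroxidase centre, had 2369.45, 2045.69 and 2326.97 FPKM in KO2 and 2645.59, 3152.46 and 2903.79 FPKM in KO1, against 3072.76, 3000.41 and 2971.49 FPKM in Ctrl. All KO2 libraries were below all others, and KO1 overlapped Ctrl. The fitted log2 change against Ctrl was −0.35 ± 0.08 in KO2, or 78.6% of the Ctrl level, and −0.09 ± 0.08 in KO1, which was not called. Between KO2 and KO1 it was −0.26 ± 0.08, a call lost without KO1 replicate 2 (−0.17), without KO1 replicate 3 (−0.26) and without KO2 replicate 2 (−0.19). Among all genes of a library, Fth1 ranked 10, 14 and 9 by FPKM in KO2 and 2, 2 and 2 in KO1, against 3, 3 and 3 in Ctrl.

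Ftl1 (Entrez 14325, chr7:45457944-45459886), the light chain that aids mineral formation in the shell, had 2544.19, 2372.62 and 2628.13 FPKM in KO2 and 1263.74, 1787.60 and 1509.59 FPKM in KO1, against 1576.24, 1591.03 and 1613.81 FPKM in Ctrl. All KO2 libraries were above all others, and KO1 spread to both sides of Ctrl. The fitted fold in KO2 was 1.66 against Ctrl (log2 0.74 ± 0.11) and 1.78 against KO1 (log2 0.83 ± 0.11), while KO1 against Ctrl was −0.10 ± 0.11 on the log2 scale and was not called. Expected counts of Ftl1 were not whole numbers, as an estimate is when reads are divided among similar sequences, so its level is uncertain. Those of Fth1 were whole. Ftl1 ranked 8, 9 and 6 by FPKM in KO2 and 25, 13 and 18 in KO1, against 17, 17 and 15 in Ctrl.

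The ratio of heavy to light chain FPKM was 0.93, 0.86 and 0.89 in KO2 and 2.09, 1.76 and 1.92 in KO1, against 1.95, 1.89 and 1.84 in Ctrl. The KO2 ratio was below 1 in each library, and the KO1 and Ctrl ratios overlapped. The mean was 0.893 ± 0.0351 in KO2 and 1.92 ± 0.165 in KO1, against 1.89 ± 0.0551 in Ctrl (SD, n = 3 each). The sum of both chains was 4762 ± 299 FPKM in KO2 and 4421 ± 516 FPKM in KO1, against 4608 ± 35.3 FPKM in Ctrl. The group ranges of the sum overlapped. The mRNAs with the near-identical elements printed above differed in opposite directions between KO2 and Ctrl. As said above, an element in a 5′ UTR blocks translation, which mRNA levels do not measure. Whether the elements had a part in these differences was not tested.

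**Figure D3:**
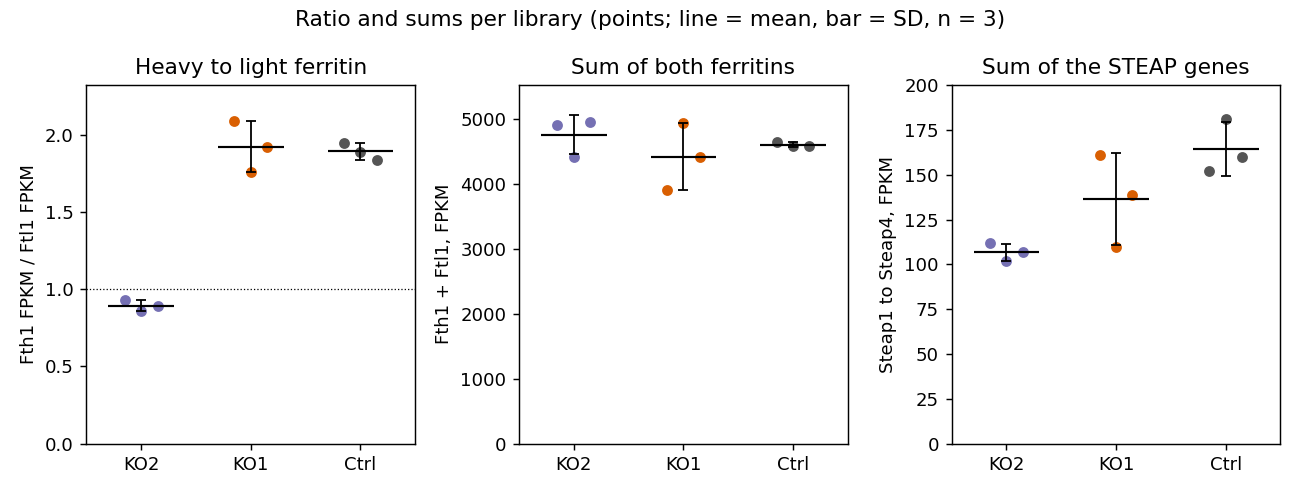
Ratio of Fth1 to Ftl1 FPKM, summed FPKM of both ferritin chains, and summed FPKM of Steap1 to Steap4 (y axes, from 0) by group (x axes: KO2, KO1, Ctrl). Points are libraries, lines are means and bars are SD (n = 3). The ratio is below 1 (dotted line) in KO2 only, and the ferritin sums overlap between groups.

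Hmox1 (Entrez 15368, chr8:75093618-75100593), the inducible enzyme that opens the heme ring and frees its iron, was lower in both knockout lines. It had 5.61, 4.36 and 5.87 FPKM in KO2 and 8.61, 10.12 and 8.61 FPKM in KO1, against 10.81, 15.17 and 17.83 FPKM in Ctrl. The groups did not overlap, though KO1 replicate 2 and Ctrl replicate 1 lay close together, and Ctrl had the widest spread. The fitted log2 change against Ctrl was −1.39 ± 0.18 in KO2, or 38.2% of the Ctrl level, and −0.71 ± 0.17 in KO1, or 61.1%. Between KO2 and KO1 it was −0.68 ± 0.18.

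Aco1 (Entrez 11428, chr4:40143265-40199009), the cytosolic aconitase that becomes iron regulatory protein 1 when it loses its iron-sulfur cluster, had 10.99, 11.07 and 11.55 FPKM in KO2 and 13.98, 13.06 and 13.28 FPKM in KO1, against 16.09, 17.92 and 15.36 FPKM in Ctrl. The 3 groups did not overlap. The fitted log2 change against Ctrl was −0.48 ± 0.08 in KO2, or 71.8% of the Ctrl level, and −0.32 ± 0.08 in KO1, or 80%. Between KO2 and KO1 it was −0.16 ± 0.08, which was not called, but limma on log2(FPKM + 1) and log2(FPKM + 0.1) gave −0.24 and −0.26 with a call.

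Ireb2 (Entrez 64602, chr9:54862658-54912534), iron regulatory protein 2, which is degraded when iron is plentiful, had the smallest changes against Ctrl of the 9 genes. It had 19.29, 19.92 and 18.99 FPKM in KO2 and 24.40, 25.04 and 21.98 FPKM in KO1, against 25.10, 19.75 and 22.78 FPKM in Ctrl. All groups but KO2 and KO1 overlapped. The fitted log2 change against Ctrl was −0.14 ± 0.09 in KO2 and 0.05 ± 0.09 in KO1, and between KO2 and KO1 −0.19 ± 0.09, and none of these was called. Without Ctrl replicate 2 the KO2 value was −0.22 against Ctrl and −0.19 against KO1, and both were called. With limma on log2(FPKM + 1) and log2(FPKM + 0.1), KO2 against KO1 was −0.28 and −0.29 and was called.

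By mean FPKM, the order in KO2 was Ftl1, Fth1, Tfrc, Ireb2, Aco1, Steap3, Hmox1, Slc11a2 and Steap4. In KO2 the neighbours Steap3 (5.86 ± 0.275 FPKM) and Hmox1 (5.28 ± 0.807 FPKM) overlapped. The order in KO1 was Fth1, Ftl1, Tfrc, Ireb2, Slc11a2, Aco1, Steap4, Hmox1 and Steap3, and no neighbours overlapped, the closest being Steap4 (11 ± 0.772 FPKM) and Hmox1 (9.11 ± 0.872 FPKM). The order in Ctrl was Fth1, Ftl1, Tfrc, Ireb2, Aco1, Steap4, Hmox1, Slc11a2 and Steap3. In Ctrl, Aco1 (16.5 ± 1.32 FPKM), Steap4 (15 ± 2.05 FPKM) and Hmox1 (14.6 ± 3.54 FPKM) overlapped, as did Hmox1 and Slc11a2 (10.6 ± 1.03 FPKM). These levels are per transcript length, so they can be set beside each other.

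The setting of these genes was described with 84 other iron and heme gene symbols in 6 role groups, of which 67 passed the filter on low counts. Hjv and Hfe2 are symbols of the same gene, as are Fdx1l and Fdx2, so the genes listed are fewer than the symbols. The 67 are all different genes. By edgeR's quasi-likelihood test with Benjamini-Hochberg adjustment over all genes, 20 rose and 19 fell in KO2 against Ctrl (58.2% of 67, beside the 54.1% of all genes given above). In KO1 against Ctrl 8 rose and 12 fell (29.9%, beside 30.5%). Without Ctrl replicate 3 the counts were 5 and 10, and without KO2 replicate 2, which shares in the spread, 7 and 12. In these fits 3309 and 4054 of all genes were called, against 4177 with all libraries. In KO2 against KO1 23 rose and 17 fell (59.7%, beside 55.0%), and without KO2 replicate 2 the counts were 22 and 15. The medians were 0.01 in KO2 and −0.02 in KO1 against Ctrl on the log2 scale. Without KO2 replicate 2, 18 rose and 15 fell in KO2 against Ctrl. The counts of all genes called in KO2 without this library are given above. The shares of the 67 were close to those of all genes. By role group in KO2 against Ctrl, the called share was 57.1% for ferritin loading, 42.9% for mitochondrial iron and 55.6% for heme synthesis. It was 68.8% for heme transport and breakdown, with 7 of 10 called for uptake and 3 of 4 for export. In KO1 against Ctrl these were 14.3%, 28.6%, 22.2% and 31.2%, with 4 of 10 and 2 of 4, in the same order. All genes gave 54.1% in KO2 and 30.5% in KO1. No group was tested against these shares.

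Of the other uptake and reduction genes, 10 of 14 were tested, and 2 rose and 5 fell in KO2, while 1 rose and 3 fell in KO1. The 5 that fell were 3 without Ctrl replicate 2, without KO2 replicate 2 or without KO2 replicate 3, and the KO1 counts were 2 and 4 without KO1 replicate 1. The median log2 change was −0.17 in KO2 and −0.10 in KO1. Lcn2, a secreted protein that binds bacterial iron carriers, fell in KO2 and rose in KO1, as Slc11a2 was lower in KO2 and higher in KO1. Lcn2 averaged 62.4 ± 5.82 CPM in KO2 and 1304 ± 23.7 CPM in KO1, against 924 ± 81.7 CPM in Ctrl (SD, n = 3 each). By edgeR its log2 change was −3.89 in KO2 (adjusted p = 1.25e-10) and 0.50 in KO1 (adjusted p = 0.00103). Slc39a14 (ZIP14), which imports iron not bound to transferrin, averaged 91.1 ± 1.97 CPM in KO2 and 118 ± 17.2 CPM in KO1, against 188 ± 17.2 CPM in Ctrl. It fell by 1.04 log2 units in KO2 (edgeR adjusted p = 8.98e-06) and by 0.67 in KO1 (edgeR adjusted p = 0.000558).

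Of the genes for ferritin loading, turnover and sensing, 7 of 9 were tested, and 1 rose and 3 fell in KO2, while 1 rose and none fell in KO1. The median was −0.14 in KO2 and 0.00 in KO1. Pcbp3, from a family of poly(C)-binding proteins some of which deliver iron to ferritin, averaged 19.6 ± 1.09 CPM in KO2 and 27.1 ± 1.21 CPM in KO1, against 26.7 ± 4.41 CPM in Ctrl (SD, n = 3 each). It fell by 0.45 log2 units in KO2 (edgeR adjusted p = 0.00599), while its KO1 change was 0.02 (edgeR adjusted p = 0.93). The gene that rose in KO2 was Pcbp1 of the same family, named after its values were seen, by 0.45 log2 units (edgeR adjusted p = 0.000768).

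Of the genes of iron export and the hepcidin axis, only 4 of 12 symbols were tested, and the untested Hjv and Hfe2 are the same gene. There were 1 higher and 2 lower in KO2 and 1 higher and 1 lower in KO1. The 2 lower in KO2 were 1 without Ctrl replicate 1, KO2 replicate 1 or KO2 replicate 3, and 2 were higher in KO1 without Ctrl replicate 2. The medians were −0.30 in KO2 and 0.45 in KO1. Cp (ceruloplasmin), the copper oxidase that oxidises iron as it leaves cells, averaged 416 ± 36.6 CPM in KO2 and 1378 ± 19.8 CPM in KO1, against 508 ± 29 CPM in Ctrl (SD, n = 3 each). By edgeR it rose by 1.44 log2 units in KO1 (adjusted p = 1.88e-07) and fell by 0.29 in KO2 (adjusted p = 0.00744). Tmprss6, a protease that lowers hepcidin in liver, was under 1 CPM on average in all groups. Its log2 change was −1.49 in KO2 (edgeR adjusted p = 0.0184), a call lost without Ctrl replicate 1 (−1.12), KO2 replicate 1 (−1.31) or KO2 replicate 3 (−1.33), and with limma on log2(FPKM + 1) (−0.14).

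Of the genes of mitochondrial iron and iron-sulfur clusters, 21 of 22 symbols were tested. The untested symbol, Fdx2, is the same gene as the tested Fdx1l. In KO2 3 rose and 6 fell, while 2 rose and 4 fell in KO1. The KO2 counts were 2 and 3 without KO2 replicate 1, and 2 and 4 without KO2 replicate 2. In KO1 none rose without Ctrl replicate 3, and 1 rose without Ctrl replicate 1, KO2 replicate 1 or any of the 3 KO1 replicates. The medians were −0.08 in KO2 and −0.13 in KO1. Glrx5, a glutaredoxin that passes clusters on, averaged 45.3 ± 2.92 CPM in KO2 and 29.1 ± 0.129 CPM in KO1, against 48 ± 3.94 CPM in Ctrl (SD, n = 3 each). It fell by 0.72 log2 units in KO1 (edgeR adjusted p = 5.86e-05), and its KO2 change was −0.08 (edgeR adjusted p = 0.403).

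All 9 genes of heme synthesis were tested, and 4 rose and 1 fell in KO2, while 1 rose and 1 fell in KO1. The median was 0.06 in KO2 and 0.05 in KO1. Without KO1 replicate 1, 2 fell in KO2, and without KO2 replicate 2, 3 rose there. Alas2, the first enzyme of the pathway in red cells, averaged 0.447 CPM in KO2 and 0.3 CPM in KO1, against 0.208 CPM in Ctrl. Its log2 change was 1.10 in KO2 (edgeR adjusted p = 0.0326), a call lost without KO2 replicate 2 (1.05), the library with globin RNA, and also without KO2 replicate 1 (1.02), Ctrl replicate 2 (0.88) or Ctrl replicate 3 (1.02). The call was also lost with no filter on low counts and with DESeq2 (1.12 in both).

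Of the genes of heme transport, breakdown and their regulators, 16 of 18 were tested, and 9 rose and 2 fell in KO2, with a median of 0.53. The counts were again 9 and 2 without KO2 replicate 2. In KO1 2 rose and 3 fell, with a median of 0.00, and 4 rose without KO1 replicate 1 but 1 without any of the other 8 libraries. Among those that rose in KO2 was Blvrb, a biliverdin reductase acting downstream of heme oxygenase, at 23.8 ± 1.57 CPM in KO2 and 10.7 ± 0.997 CPM in KO1, against 10.5 ± 1.24 CPM in Ctrl (SD, n = 3 each). By edgeR its log2 change was 1.18 in KO2 (adjusted p = 6.41e-06) and 0.03 in KO1 (adjusted p = 0.88). Named after their values were seen, the second reductase Blvra rose by 0.62 log2 units in KO2 (edgeR adjusted p = 0.000148) and Hmox2, the constitutive heme oxygenase, by 0.53 (edgeR adjusted p = 0.00098), and so did Bach1, a repressor of Hmox1 that heme inactivates, by 0.60 (edgeR adjusted p = 4.39e-05). These stood beside the lower Hmox1 of the same libraries, and a link between them was not tested. In KO1, where Hmox1 was lower too, Bach1 was at −0.15 (edgeR adjusted p = 0.151). Nfe2l2 of the same role group, named likewise, was at 0.23 in KO2 (edgeR adjusted p = 0.0137) and −0.44 in KO1 (edgeR adjusted p = 0.000608). Keap1, also of this group and named likewise, was at 0.53 in KO2 (edgeR adjusted p = 0.000458) and 0.12 in KO1 (edgeR adjusted p = 0.331). A part of either in the Hmox1 levels was not tested. Cd163, also named after its values were seen, is a receptor for hemoglobin bound to haptoglobin and one of the macrophage markers above. It rose in both lines by edgeR, by 0.96 in KO2 (adjusted p = 1.07e-05) and by 0.61 in KO1 (adjusted p = 0.000712).

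The pair that fell in KO2 was nearly silent there. Abcg2, a pump for porphyrins and drugs, had 1, 1 and 3 counts in KO2 and averaged 9.11 ± 1.13 CPM in KO1, against 29.9 ± 3.12 CPM in Ctrl (SD, n = 3 each). From the summed counts it was 536-fold lower in KO2 than in Ctrl (95% exact conditional binomial interval 229 to 1652, counting error only). Hp (haptoglobin), which binds free hemoglobin, had 0, 6 and 0 counts in KO2, all of them in the library with globin RNA, and averaged 8.65 ± 0.872 CPM in KO1, against 18.6 ± 0.515 CPM in Ctrl. It was 278-fold lower in KO2 than in Ctrl (interval 127 to 757), and without that library at least 291-fold lower. This bound is against a floor of 3.84 counts over the other KO2 libraries and was chosen after seeing the data. Both fell in KO1 too, with a log2 change of −1.71 for Abcg2 (edgeR adjusted p = 2.99e-06) and −1.11 for Hp (edgeR adjusted p = 0.00287). Whether the globin RNA of KO2 replicate 2 touched any value was not tested beyond leaving the library out.

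**Figure D4:**
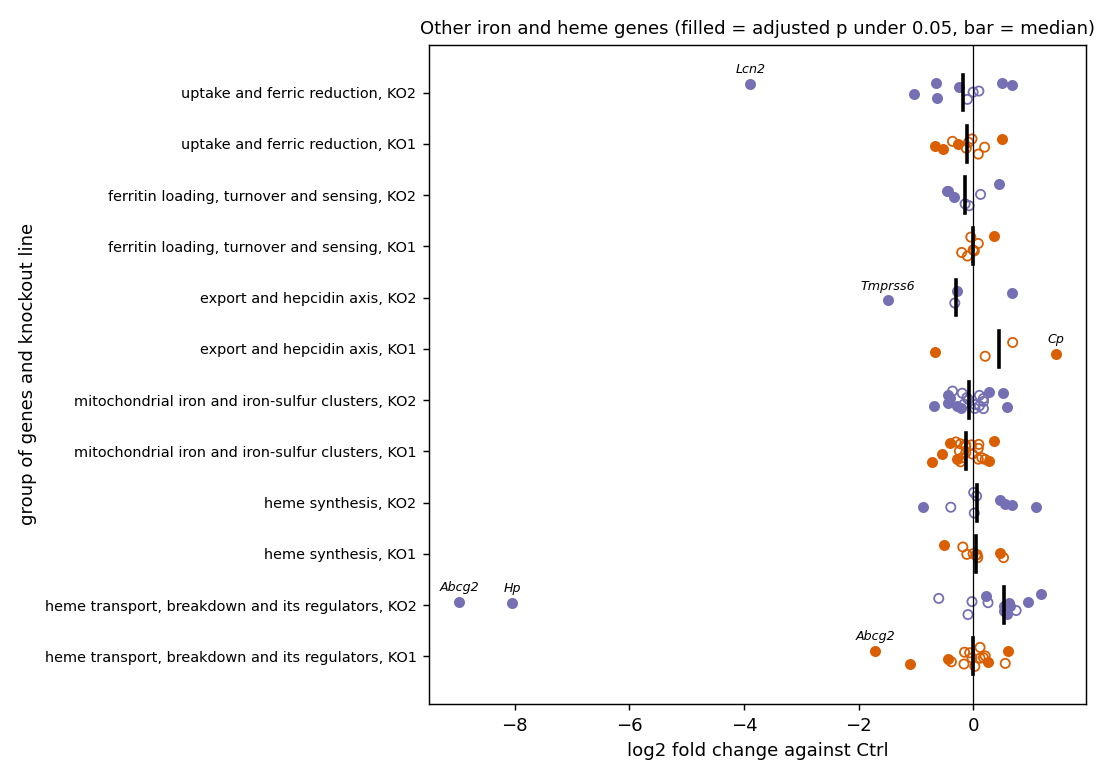
Fitted log2 fold change against Ctrl (x axis) of the 67 tested other iron and heme genes, by role group and knockout line (y axis). Filled points passed an adjusted p under 0.05, open points did not, bars are medians, and points past 1.4 log2 units are named. The KO2 median of the heme transport and breakdown group is 0.53 and its KO1 median 0.00, and fitted values near −8 and −9 for Hp and Abcg2 rest on 6 and 5 KO2 counts.

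In promoter windows of RefSeq on GRCm38, from 250 bases before to 50 after the start, the antioxidant response core TGACNNNGC was found on neither strand in any window of the measured genes (all but Slc11a2 and Hmox1), while 12.4% of all 32851 windows held it. The hypoxia element core ACGTG, searched on both strands, was found among them only in Tfrc, and 19.6% of all windows held it. A match or its lack in this window describes letters only.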

How the data were processed

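RNA of 9 libraries of 4T1-TGL cells was sequenced as paired-end reads of 100 bases, per the labels. The authors' deposited tables give per gene an expected count (an estimated count, not normalised), a transcript length and FPKM, scaled by the authors for length and library size. HISAT and RSEM and the builds mm10 and GRCm38 are named, without versions, per the submitters' processing notes. A gene absent from a library's table was taken as 0, since the deposited tables list FPKM of 0.01 and above. The iron and heme genes absent from every table were given no value. Totals ran from 30655924 to 35406395 per library.

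Libraries were grouped by their titles. Expected counts were rounded to whole numbers and tested by the robust quasi-likelihood F test of edgeR 4.0.16 (R 4.3.3), after filterByExpr and TMM scaling, with all libraries in 1 fit and Benjamini-Hochberg adjustment over the 13682 genes kept. CPM are after TMM scaling. The SE of a fold change is its size over the root of F, an approximation. The fit was also run on simulated counts, with rises set in some genes of KO1 only. That run does not bear on genes that fall to few counts, nor on data with as many called genes as here. Per-gene levels are mean ± SD of 3 libraries. Intervals and floors cover counting error only.

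The genes described, the 6 role groups and the rule for names were chosen with earlier results of these data known. The rule took every gene of a role group called at a change of 2-fold or more in either line, or the called gene with the largest change where none reached 2-fold. Exceptions are said to be so in the text, and Steap1 and Steap2 are given as the family of Steap3 and Steap4.

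Alternatives were other scalings, no filter, DESeq2 1.42.0, limma 3.58.1 on log2(FPKM + 1) and log2(FPKM + 0.1), fits of just the 2 groups in question, a block for the replicate number, a threshold of 0.01 and leaving out each library. Deviations of libraries with the same replicate number correlated between −0.34 and 0.05, so samples were treated as unpaired. Protein sequences were not used here.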

Additional observations from a re-analysis of the deposited data

Results flagged for a closer look

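Slc11a2, Lcn2 and Cp had all libraries of one knockout line above all Ctrl libraries and all of the other line below them. They were found among the measured genes and those named by rule. How common this pattern is over all tested genes was not counted, so nothing is read from it. Slc11a2, the endosomal iron transporter, was at −2.07 log2 units in KO2 and 0.88 in KO1 against Ctrl, and the gap between KO2 and KO1 was −2.95. It was among the genes called between KO2 and KO1, but as it was chosen with these values in view, the call is no independent test. Lcn2 was at −3.89 in KO2 and 0.50 in KO1, a difference of −4.39 that passed edgeR's test of KO2 against KO1 (adjusted p = 7.56e-11). Cp was at −0.29 in KO2 and 1.44 in KO1, a difference of −1.73 (edgeR adjusted p = 1.36e-08). Lcn2 and Cp were named by the size of their changes in these same data, so their tests are not independent either. Outside the rule, and named after their values were seen, Hfe was at 0.50 in KO2 and −0.53 in KO1, and Nfe2l2 at 0.23 in KO2 and −0.44 in KO1, each called in both.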

How the results depend on the processing

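Of 425 fold changes of the measured genes over 17 alternatives, none turned its direction while called, and 12 moved by more than the spread between replicates. On log2(FPKM + 1) with limma, Steap3 was at 1.15 in KO2 and 0.91 in KO1 against Ctrl, and Slc11a2 at −1.72 in KO2, since a pseudocount shrinks low genes. On log2(FPKM + 0.1) the median of all genes was −0.107 in KO2 against Ctrl and −0.126 in KO2 against KO1, so FPKM folds are to be read against that shift. Without KO1 replicate 2, Ftl1 in KO2 against KO1 was 0.99. Steap4 in KO2 has a bound in place of such values.

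At an adjusted p under 0.01, 2620 genes were called in KO1 against Ctrl, against 4177 at 0.05, and 4 of the measured iron genes in KO2 against KO1, against 7, while both limma fits called 9 of these. Leaving out 1 library at a time, the measured genes called ranged from 8 to 9 in KO2 and from 5 to 6 in KO1 against Ctrl, and from 5 to 7 in KO2 against KO1. For the other iron and heme genes the range was 31 to 41 in KO2 and 15 to 24 in KO1 against Ctrl, and 35 to 40 in KO2 against KO1. For all genes it was 6412 to 7985 in KO2 and 3215 to 4503 in KO1 against Ctrl, and 6451 to 7964 in KO2 against KO1.

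With a replicate block, which the data give no ground for, KO2 against Ctrl gave 6726 called genes, KO1 against Ctrl 3365 and KO2 against KO1 6829. Of the measured iron genes, 8 were called in KO2 against Ctrl, 5 in KO1 against Ctrl and 6 in KO2 against KO1, and Tfrc in KO2 against KO1 was the call lost. Depth limits Steap4, Abcg2 and Hp in KO2, which rest on 0, 5 and 6 counts.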
